A study of Mus musculus with 32 samples.

Results

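The calcium reabsorption and vitamin D genes of the mouse kidney were followed through cisplatin injury in 10 genes, chosen by name out of 54532 genes in the count table. They were the channels Trpv5 and Trpv6, the binding proteins Calb1 and S100g, the exporters Slc8a1 and Atp2b1, the vitamin D receptor Vdr, the vitamin D enzymes Cyp27b1 and Cyp24a1, and the calcium-sensing receptor Casr. All 10 passed the filter on low counts in every comparison. Kidney RNA was sequenced from 32 wild type C57BL/6 mice aged 6 to 8 weeks, 1 mouse per library, in 8 groups of 4. The groups were males and females at Day 0, before injury, and at Day 2, Day 3 and Day 5 after a single intraperitoneal injection of cisplatin at 20 mg/kg, a platinum drug that damages the tubules. The labels name cisplatin for the Day 0 females and give no treatment for the Day 0 males, while the study's text describes Day 0 mice as healthy, so both were taken as the untreated baseline.

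Calcium left in the urine is recovered across the cells of the distal convoluted and connecting tubules. Trpv5 and Trpv6 let it in at the urinary side, calbindin-D28k (encoded by Calb1) and calbindin-D9k (S100g) carry it through the cell, and the sodium/calcium exchanger (Slc8a1) and the plasma membrane pump (Atp2b1) move it to the blood side. The active hormone 1,25-dihydroxyvitamin D is made by Cyp27b1 in the proximal tubule, is broken down by Cyp24a1, and acts through Vdr on many genes of this route. Casr, most abundant in the thick ascending limb, senses blood calcium.

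Totals ran from 16502107 to 35961325 counts per library. Mitochondrial genes took 4.49% to 24.0% of counts at Day 0, but 42.5%, 78.9%, 79.8% and 79.7% in male Day 5 mice 1 to 4, and 31.6%, 77.9%, 22.2% and 9.30% in female Day 5 mice 1 to 4. In male Day 5 mouse 1, Xist, the transcript of the inactive X chromosome in females, reached 4153 counts (232 CPM, counts scaled to library size) beside 387 counts from Y-linked genes, so this library went against its label. Xist was at 8.28 to 38.6 CPM in the other Day 5 males, at most 13.9 CPM in the other days' males and 68.5 to 325 CPM in females, who had at most 221 Y-linked counts. Most fold changes of Day 5 males are therefore also given without mouse 1. The adrenal cortex list (6 genes, among them Star and Cyp11a1) summed to 0.730 to 15.8 CPM in Day 0 males and 3.11 to 235 CPM in Day 0 females. It reached 375 CPM in male Day 2 mouse 2, was at 22.8, 19.7, 1282 and 1586 CPM in Day 3 female mice 1 to 4, was at 405 to 1020 CPM in Day 5 females and at 24.7 to 119 CPM in Day 5 males, where 3 of its 4 tested genes rose (1 of 4 without mouse 1). Day 0 mouse 4 stood apart in both sexes. Its mitochondrial share was 24.0% in the male (6.46% to 10.7% in the others) and 19.7% in the female (4.49% to 10.1%), its summed thick limb level 945 CPM (1759 to 3380) and 1178 CPM (2430 to 3394), and its smooth muscle and fibroblast level 533 CPM (155 to 177) and 372 CPM (168 to 220). Day 0 mouse 3 also lay at the edge of its group for several members in both sexes. It was highest for Calb1 (313 CPM in the male, 472 CPM in the female) and S100g (1623 and 2572 CPM). It was lowest for Trpv5 (2.92 and 5.39 CPM), Casr and Cyp27b1. The adrenal list's part, and that of these differences, in the results was not tested.

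The promoters of 3 members are shown because the 2 channels are neighbours on chromosome 6, are read from the same strand and moved in the same direction, and because Cyp27b1 is the activating enzyme. Each is the 100 bases before the RefSeq start (GRCm38.p6), with capitals for the letters TATAAA or CCAAT found on either strand.
Trpv5, chr6:41680724-41680823, minus strand: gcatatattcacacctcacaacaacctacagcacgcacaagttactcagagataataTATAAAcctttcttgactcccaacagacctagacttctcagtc
Trpv6, chr6:41636406-41636505, minus strand: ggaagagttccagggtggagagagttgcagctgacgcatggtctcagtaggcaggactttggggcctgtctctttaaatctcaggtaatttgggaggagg
Cyp27b1, chr10:127048146-127048245, plus strand: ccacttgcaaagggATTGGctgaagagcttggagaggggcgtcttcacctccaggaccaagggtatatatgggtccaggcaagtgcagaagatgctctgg

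RefSeq promoters were found for 8 of the 10 members, the others being Calb1 and Cyp24a1. TATAAA was found in 2 of the 8 members, 43 bases before the start of Trpv5 and right at that of S100g, and was in 13.6% of all 32851 promoters of the same length (250 bases before to 50 after the start, either strand). Trpv5 as counted reaches 41680769, upstream of its RefSeq start, so this TATAAA and part of the printed stretch lie within the counted gene. The RefSeq starts of Vdr, Slc8a1 and Atp2b1 also differed from those of the counted genes. CCAAT lay 86 bases before the start of Cyp27b1 on the opposite strand, and was in 37.4% of promoters. The DR3 vitamin D response element consensus, searched on both strands, matched none of the 8 members' promoters and 0.0396% of all promoters. These matches describe letters only.

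The members were ranked at Day 0 per length, as FPKM (fragments scaled to gene length and library size). The means over 8 untreated mice were 2295 for S100g, 64.8 for Calb1, 31.8 for Vdr and 22.0 for Cyp24a1. Atp2b1 (2.33), Cyp27b1 (1.96), Slc8a1 (1.95), Trpv5 (1.88) and Casr (1.54) formed a group whose ranges overlapped. The Cyp27b1 mean rested on mouse 4, at 9.09 CPM in the male and 24.9 CPM in the female. The other males had at most 1.60 CPM and the other females at most 1.79 CPM. Trpv6 had the lowest mean, at 0.239 ± 0.0526 FPKM in males and 0.302 ± 0.0926 in females (SD, n = 4 each). S100g, Calb1 and Vdr did not overlap each other over the 8 mice, whereas Cyp24a1 overlapped Vdr and Calb1. The binding proteins stood far above the channels. Between untreated mice Cyp27b1 varied most relative to its mean and Vdr least: the Vdr Day 0 level was 35.6 ± 1.81 FPKM in males and 28.0 ± 0.820 in females.

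**Figure D1:**
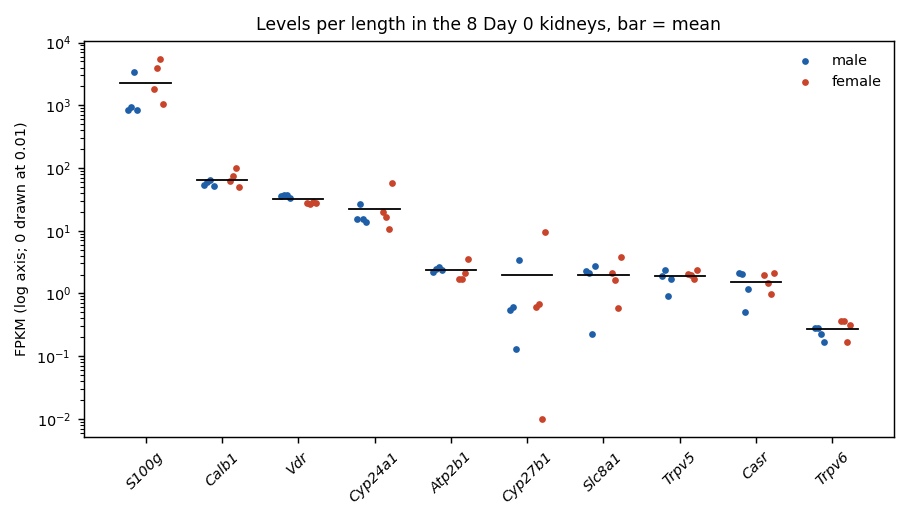
Level of each member in the 8 Day 0 kidneys, as FPKM on a log axis, with 1 point per mouse, males in blue, females in red and the mean as a bar; a library at 0 is drawn at 0.01. S100g (mean 2295) stood above every other member and Trpv6 (mean 0.270) had the lowest mean.

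The first question was how each member changed after cisplatin within each sex. In 60 tests against Day 0 (10 members, 6 comparisons), 10 passed an adjusted p of 0.05, over 7 members. In males, 1 of 10 members was called at Day 2, where 3.16% of all genes tested were called, 5 of 10 at Day 3 (24.5% of all genes) and 1 of 10 at Day 5 (19.2%). In females, 2 of 10 were called at Day 2 (1.93%), 1 of 10 at Day 3 (5.54%) and 0 of 10 at Day 5 (0.258%), where 4 members reached 0.05 before adjustment (15.7% of all genes) and DESeq2 called 2. These counts moved with single libraries. The share of all genes called with a library left out is not given here, so whether that share moved alike is not shown. The female Day 2 count was 0 without Day 0 mouse 1 or 2 or Day 2 mouse 1, 2 or 3, and the female Day 3 count was 0 without Day 0 mouse 1, 2 or 3 or Day 3 mouse 1, 3 or 4, and 3 without Day 3 mouse 2. Without female Day 0 mouse 4 they were 7 and 7, and the Day 5 count 2. The male Day 2 count was 0 without Day 0 mouse 1 or 2 or any 1 Day 2 mouse, 2 without Day 0 mouse 3 and 3 without Day 0 mouse 4. The male Day 5 count was 0 without Day 5 mouse 4 and 2 without Day 0 mouse 3, and without the doubtful male Day 5 mouse 1 it was 2. Without any 1 Day 3 male the male Day 3 count was 2 or 3, and without Day 0 mouse 3 it was 7. The 6 comparisons share their Day 0 mice within a sex. Counts come from whole kidney, so fewer cells of a type and less RNA per cell cannot be told apart.

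**Figure D2:**
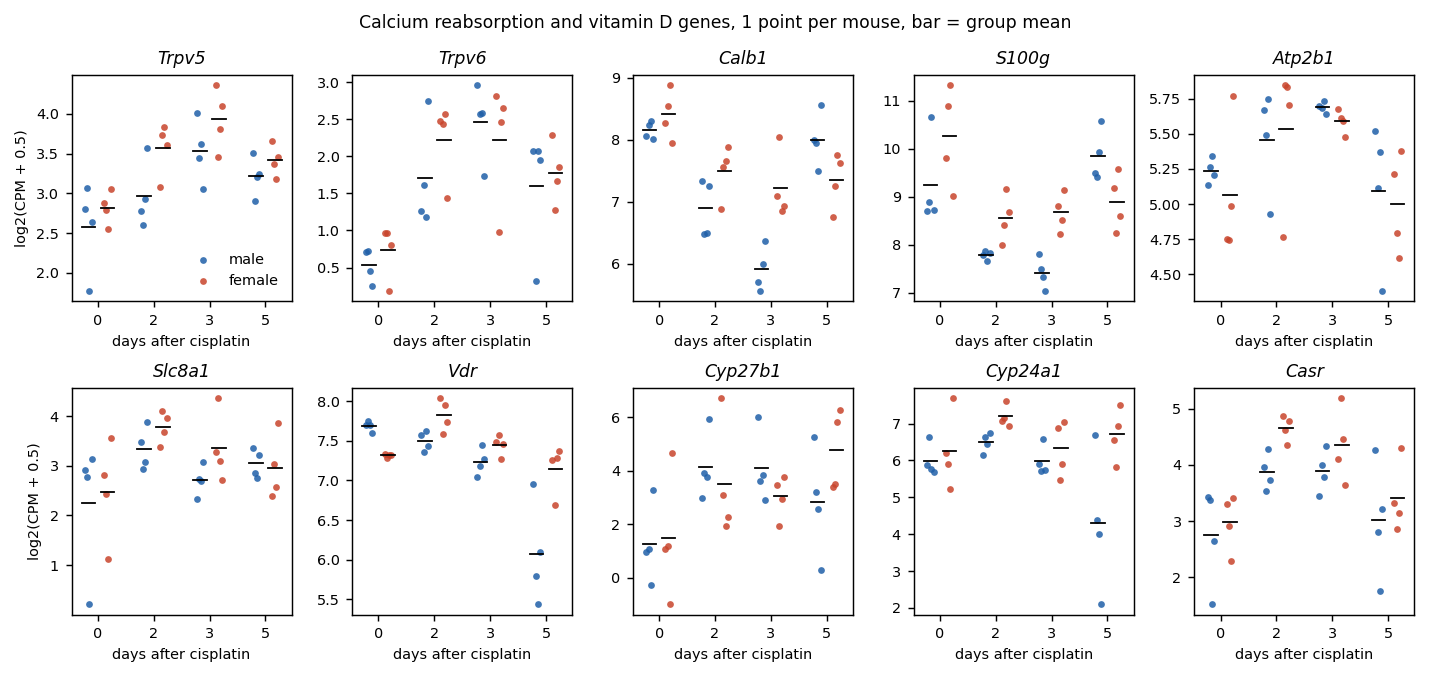
Level of each of the 10 members by day, as log2(CPM + 0.5), with 1 point per mouse, males in blue, females in red and group means as bars. Every Day 3 mouse lay above its sex's Day 0 mean CPM for Trpv5 and Trpv6 and below it for Calb1 and S100g, and Calb1 in males went from 285 CPM on average at Day 0 to 46.7 to 81.9 CPM at Day 3.

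Of the channels, Trpv6 rose in Day 3 males and Day 2 females and Trpv5 in Day 3 females. Trpv6, a calcium channel best known from the gut, had 1.14, 1.15, 0.876 and 0.690 CPM in male mice 1 to 4 at Day 0 and 7.30, 5.44, 5.47 and 2.84 CPM at Day 3. The groups did not overlap, and the rise was 2.44 on the log2 scale (SE 0.34, adjusted p = 0.00569, 5.44-fold). It held with each of the 8 libraries left out in turn (log2 fold change 2.25 to 2.65). In females Trpv6 went from 1.46, 1.46, 0.637 and 1.24 CPM at Day 0 to 5.05, 4.90, 5.42 and 2.20 CPM at Day 2, a rise of 1.86 (SE 0.41, adjusted p = 0.0498). That call was lost without Day 0 mouse 1 or 2 or Day 2 mouse 1, 2 or 3 (adjusted p 0.0827 to 0.18). At Day 3 the female difference was 1.94 (adjusted p = 0.0505), with mouse 2 at 1.47 CPM and the others from 5.02 to 6.50. By Day 5 the difference was 1.64 in males (adjusted p = 0.0585), where mouse 2 had 0.743 CPM and the others 3.37 to 3.71, and without that mouse it was 1.95 (adjusted p = 0.0444), and 1.51 without the doubtful mouse 1 (adjusted p = 0.104). These are low counts, from 5 to 262 per library.

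Trpv5, the gatekeeper of distal calcium entry, had 6.88, 6.41, 5.39 and 7.80 CPM in female mice 1 to 4 at Day 0. At Day 2 the values were 7.98, 12.8, 13.8 and 11.7 CPM, at Day 3 they were 20.1, 10.5, 13.5 and 16.6 CPM, and at Day 5 they were 12.1, 9.87, 8.54 and 10.5 CPM. Every treated female was above every Day 0 female. The rise at Day 3 was 1.18 (SE 0.24, adjusted p = 0.0465, 2.27-fold), a call lost without Day 0 mouse 1, 2 or 3 or Day 3 mouse 1, 3 or 4 (adjusted p 0.0713 to 0.168). The female differences at Day 2 (0.80, adjusted p = 0.0889) and Day 5 (0.63, adjusted p = 0.269) did not pass. In males Trpv5 had 6.46, 7.90, 2.92 and 5.75 CPM at Day 0 and 15.6, 10.3, 11.8 and 7.82 CPM at Day 3, a difference of 0.99 (SE 0.32, adjusted p = 0.0515). Male mouse 4 at Day 3 was just under mouse 2 at Day 0, so the groups overlapped. Without Day 0 mouse 3, the lowest, the difference was 0.76 and passed (adjusted p = 0.03). The male log2 fold changes at Day 2 (0.42, adjusted p = 0.433) and Day 5 (0.70, adjusted p = 0.148, or 0.60 and 0.244 without the doubtful mouse 1) did not pass.

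Of the binding proteins, Calb1 fell in males at Day 2 and Day 3 and S100g in males at Day 3, and neither passed in females. Calb1 had 266, 303, 313 and 257 CPM in male mice 1 to 4 at Day 0, 161, 88.3, 89.7 and 152 CPM at Day 2, and 51.6, 46.7, 63.2 and 81.9 CPM at Day 3. The 3 groups did not overlap. The fall was 1.20 at Day 2 (log2 fold change -1.20, SE 0.23, adjusted p = 0.0402) and 2.23 at Day 3 (log2 fold change -2.23, SE 0.19, adjusted p = 0.00162), to 0.214 of the Day 0 level. The Day 3 call held with each library left out, whereas the Day 2 call was lost without Day 0 mouse 1 or 2 or any 1 Day 2 mouse (adjusted p 0.0643 to 0.135). At Day 5 the male values were 254, 246, 180 and 377 CPM, on both sides of the Day 0 range, and Calb1 rose by 2.21 from Day 3 to Day 5 (SE 0.27, adjusted p = 0.00204), and by 2.21 without mouse 1 (adjusted p = 7.79e-05).

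In females Calb1 went from 308, 370, 472 and 246 CPM at Day 0 to 117, 187, 201 and 235 CPM at Day 2, 136, 262, 115 and 121 CPM at Day 3, and 107, 151, 216 and 196 CPM at Day 5. The female log2 fold changes were -0.92 at Day 2 (adjusted p = 0.0939), -1.15 at Day 3 (0.0578) and -1.06 at Day 5 (0.181). Day 0 mouse 4 was the lowest of its group, and without it all 3 differences passed (log2 fold changes -1.05, -1.29 and -1.19, adjusted p 0.0183, 0.0131 and 0.0253). Day 3 mouse 2 stood above its group. Adipocyte genes were lower beside these falls: 3 of 6 fell in Day 3 males (median log2 fold change -1.83, 13.1% of all genes fell), 2 of 6 in Day 2 females (-0.99, 1.16%) and 2 of 6 in Day 3 females (-0.98, 4.28%). Their summed level was 498 to 2717 CPM in Day 0 males, 267 to 348 CPM in Day 3 males, 798 to 1606 CPM in Day 0 females and 391 to 768 CPM in Day 2 and Day 3 females. Their part was not tested.

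S100g followed Calb1 in direction, from a baseline that varied more. In males it had 414, 471, 1623 and 421 CPM at Day 0, 221, 232, 202 and 226 CPM at Day 2, 222, 179, 161 and 131 CPM at Day 3, and 723, 676, 980 and 1515 CPM at Day 5. Day 0 mouse 3 stood far above its group, and the Day 5 males lay above all Day 2 and Day 3 males. The log2 fold change was -1.73 at Day 2 (SE 0.46, adjusted p = 0.0629) and -2.09 at Day 3 (SE 0.49, adjusted p = 0.0213). Without Day 0 mouse 3 these were -0.99 (adjusted p = 0.00627) and -1.33 (adjusted p = 0.000657). The Day 3 call was lost without any 1 of the Day 3 mice (adjusted p 0.0558 to 0.0733). From Day 3 to Day 5 S100g rose by 2.59 in males (SE 0.31, adjusted p = 0.00208), and by 2.69 without mouse 1 (adjusted p = 3.28e-05). Beside the Day 3 to Day 5 rises of Calb1 and S100g in males, genes of several lists rose, where 20.9% of all genes rose, 17.1% fell and the mitochondrial share reached 42.5% to 79.8%. They were 6 of 11 distal convoluted tubule genes (median log2 fold change 0.97, 1 fell), 5 of 9 connecting tubule and collecting duct genes (0.76), 8 of 8 intercalated genes (0.98), 6 of 6 adipocyte genes (3.04) and 5 of 6 smooth muscle and fibroblast genes (1.28). Of 8 leukocyte genes 5 rose (1.76), whereas 8 of 12 proximal tubule genes fell and 0 rose (-2.26). Without mouse 1 the counts that rose were 7 (median 0.92), 5 (0.72), 8 (0.99), 6 (3.28), 5 (1.51) and 6 (2.07) in the same order, and 12 of 12 proximal tubule genes fell (-3.66). In that fit 2 distal convoluted tubule genes and 2 connecting tubule and collecting duct genes fell. With or without mouse 1, 1 smooth muscle and fibroblast gene fell. Of 8 thick limb genes 1 rose and 0 fell (0.05), or 1 rose and 3 fell without mouse 1 (-0.23). Their part in the rises of Calb1 and S100g was not tested. In females S100g had 896, 1900, 2572 and 515 CPM at Day 0, 254, 341, 569 and 408 CPM at Day 2, 449, 298, 367 and 564 CPM at Day 3, and 578, 300, 761 and 386 CPM at Day 5. Day 0 mouse 4 lay within the treated range and the other Day 0 females above it. The female log2 fold changes were -1.91, -1.82 and -1.54 at Day 2, Day 3 and Day 5 (adjusted p 0.0594, 0.053 and 0.215), and each passed without Day 0 mouse 4 (adjusted p 0.00452, 0.00366 and 0.0231). S100g lies wholly inside Ctps2, a gene of the opposite strand. Ctps2 had at most 1212 counts in a library, against 2497 to 69104 for S100g, and whether reads were counted by strand is not given in the sources used here.

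**Figure D3:**
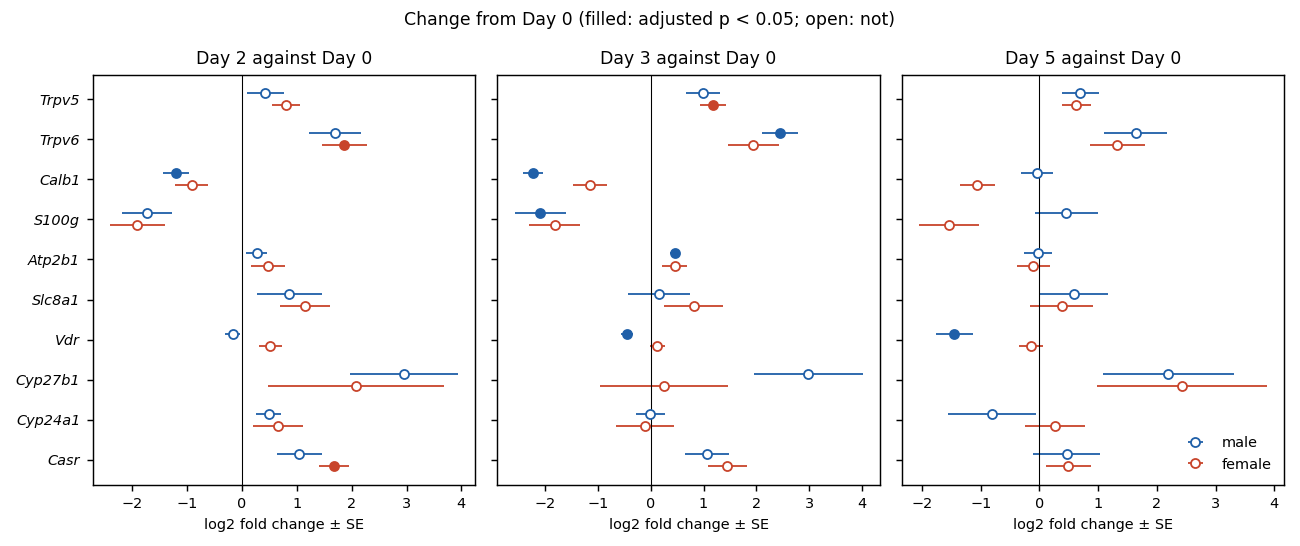
Log2 fold change of each member against Day 0 at Day 2, Day 3 and Day 5, with bars of 1 SE, males in blue and females in red; filled points passed an adjusted p of 0.05 in edgeR. At Day 3 in males Trpv6 rose by 2.44, while Calb1 and S100g had log2 fold changes of -2.23 and -2.09; Cyp27b1 had the widest errors.

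Of the exporters, Atp2b1 rose in Day 3 males. It had 34.7, 38.0, 40.0 and 36.5 CPM in Day 0 male mice 1 to 4 and 51.4, 50.9, 52.7 and 49.4 CPM in Day 3 males, without overlap. The rise was 0.45 (SE 0.10, adjusted p = 0.0159, 1.37-fold), and was lost without Day 3 mouse 1, 2 or 3 (adjusted p 0.0516 to 0.0641). The female difference at Day 3 was also 0.45, with an SE of 0.24 (adjusted p = 0.227). Female Day 0 mouse 4 had 54.0 CPM beside 26.4 to 31.2 in the others. Slc8a1 passed in no comparison. Its widest difference was in Day 2 females, at 1.14 (SE 0.46, adjusted p = 0.153), from 6.49, 4.92, 1.67 and 11.3 CPM to 9.96, 16.6, 12.4 and 15.2 CPM. Without Day 0 mouse 4 it was 1.62 (adjusted p = 0.0162). Day 0 mouse 3 was lowest for Slc8a1 in both sexes, at 0.657 CPM in males.

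Whether Trpv5 and Calb1 moved with their tubule segment was asked by ratio within a library. The reference was the mean log2 level of 11 distal convoluted tubule genes, including the thiazide-sensitive cotransporter Slc12a3 and the binding protein Pvalb, and the test was an exact two-sided permutation of days within each sex (4900 arrangements, Benjamini-Hochberg over 9 tests). Trpv5 rose against this list by 1.06 at Day 2 (adjusted p = 0.00184), 1.74 at Day 3 (0.00184) and 0.95 at Day 5 (0.00612) on the log2 scale, averaged over the sexes. The Day 3 p of 0.000408 is the smallest these permutations can give. Calb1 fell against it, with differences of -0.60 at Day 2 (adjusted p = 0.00441), -1.004 at Day 3 (0.00184) and -0.28 at Day 5 (0.0358). The Day 3 Calb1 value was -1.49 in males and -0.51 in females, and whether the sexes differed in it was not tested. Against Slc12a3 alone, the Calb1 differences of -0.49 at Day 2 and -0.15 at Day 5 no longer passed (adjusted p 0.157 and 0.439). The Day 5 Calb1 difference was also lost without any 1 of 8 libraries (female Day 0 mice 1, 2 and 3, female Day 5 mice 1 and 4, male Day 0 mouse 2, male Day 5 mice 1 and 2; adjusted p 0.0514 to 0.0748). Without the doubtful male Day 5 mouse 1 the Day 5 difference of Trpv5 was 0.94 (adjusted p = 0.0131) and that of Calb1 -0.24 (0.0637).

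The list itself fell in part. At Day 3, 4 of its 11 tested genes fell in males (13.1% of all genes did) and 2 of 12 in females (4.28%), and 0 rose in either sex. Its median log2 fold change was -0.49 in males and -0.61 in females, beside 0.02 and 0.03 over all genes. Pvalb fell at Day 3, with log2 fold changes of -3.86 in males and -3.74 in females (adjusted p = 0.00915 and 0.0465), and Slc12a3 had log2 fold changes of -0.67 and -0.95 (adjusted p = 0.0822 and 0.117). Whether the Pvalb calls held with a library left out was not tested. The list's summed level was 1238 to 1526 CPM in Day 0 males and 880 to 1188 CPM in Day 3 males, and 1573 to 2007 CPM in Day 0 females and 1057 to 1678 CPM in Day 3 females. Of the 9 tested connecting tubule and collecting duct genes, edgeR called 0 in males at Day 2 (3.16% of all genes) and Day 3 (24.5%), where 1 and 2 were under 0.05 before adjustment and DESeq2 called 1 and 2. In Day 3 females 1 of the 9 fell (4.28%), 5 were under 0.05 before adjustment and DESeq2 called 4.

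**Figure D4:**
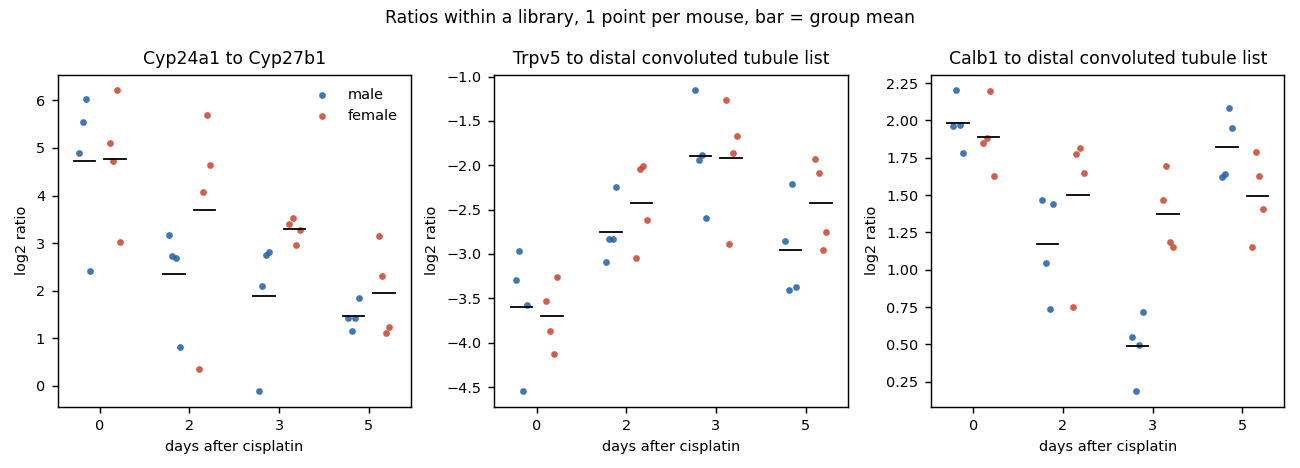
Log2 ratios within each library by day, for Cyp24a1 to Cyp27b1, Trpv5 to the distal convoluted tubule list and Calb1 to that list, with 1 point per mouse, males in blue, females in red and group means as bars. The Trpv5 ratio averaged -3.60 in Day 0 males and -1.89 in Day 3 males, and the Calb1 ratio 1.98 and 0.49 in males and 1.89 and 1.38 in females.

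The hormone side showed a late fall of the receptor in males. Vdr had 207, 215, 208 and 193 CPM in male mice 1 to 4 at Day 0, 190, 164, 197 and 172 CPM at Day 2, 132, 144, 173 and 154 CPM at Day 3, and 123, 54.8, 42.9 and 67.9 CPM at Day 5. The Day 0 males did not overlap the Day 3 or the Day 5 males. The log2 fold change was -0.45 at Day 3 (SE 0.12, adjusted p = 0.0316) and -1.45 at Day 5 (SE 0.31, adjusted p = 0.0163), the latter 0.366 of the Day 0 level. From Day 3 to Day 5 it was -0.97 (SE 0.29, adjusted p = 0.0267), and -1.38 without mouse 1 (adjusted p = 9.27e-05). Mouse 1 at Day 5, whose label is in doubt, was the highest of its group; without it the Day 5 value was -1.82 (adjusted p = 0.000832). The Day 5 call was lost without Day 5 mouse 2 or 4 (adjusted p 0.0602 and 0.0539). The Day 3 call was lost without Day 0 mouse 1 or 2 or any 1 Day 3 mouse (adjusted p 0.0557 to 0.0989), and the Day 5 against Day 3 call without Day 3 mouse 2, 3 or 4 or Day 5 mouse 2, 3 or 4 (adjusted p 0.0517 to 0.0789). In females Vdr had 161, 156, 159 and 160 CPM at Day 0, 262, 191, 246 and 213 CPM at Day 2 (log2 fold change 0.52, adjusted p = 0.16), 179, 190, 153 and 176 CPM at Day 3 and 152, 103, 155 and 165 CPM at Day 5. No female comparison of Vdr passed.

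Proximal tubule markers moved beside Vdr in the Day 5 males. The 12 genes of that list, among them the endocytic receptor Lrp2, summed to 13786 to 16764 CPM in Day 0 males and 818 to 6150 CPM in Day 5 males. Of the 12, 5 fell (10.2% of all genes did) and 0 rose, with a median log2 fold change of -2.03 beside 0.04 over all genes. Mouse 1 held the 6150 CPM, and the other 3 had 818 to 1573 CPM. Without mouse 1, 12 of the 12 fell, with a median of -3.37. The mitochondrial share was 42.5% to 79.8% in these 4 libraries, against 6.46% to 24.0% in Day 0 males. Neither one's part in the Vdr result was tested.

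Cyp27b1, the activating enzyme, was the most variable member. In males it had 1.47, 1.60, 0.328 and 9.09 CPM at Day 0, 7.32, 14.4, 13.0 and 60.3 CPM at Day 2, 64.2, 11.7, 13.7 and 7.08 CPM at Day 3, and 38.2, 8.76, 5.48 and 0.702 CPM at Day 5. Day 0 mouse 4 reached the Day 2 and Day 3 range and the other 3 did not. The log2 fold change was 2.96 at Day 2 (SE 0.98, adjusted p = 0.0951) and 2.98 at Day 3 (SE 1.03, adjusted p = 0.0638). Without Day 0 mouse 4 these were 4.44 (adjusted p = 0.0294) and 4.47 (adjusted p = 0.0162). At Day 5 the difference was 2.19 (adjusted p = 0.186), and 0.76 without the doubtful mouse 1 (adjusted p = 0.63). In females Day 0 held 1.62, 1.79, 0 and 24.9 CPM, mouse 4 again being the high one, and the count of 0 in mouse 3 allows up to 0.147 CPM. Day 2 held 105, 7.97, 3.28 and 4.37 CPM, Day 3 held 10.5, 3.35, 7.26 and 13.2 CPM, and Day 5 held 10.1, 10.9, 56.0 and 77.7 CPM. No female comparison with Day 0 passed (adjusted p 0.437 to 0.898).

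Cyp24a1, the inactivating enzyme, had 57.8, 98.3, 53.8 and 50.7 CPM in Day 0 males, 69.9, 99.2, 86.0 and 106 CPM at Day 2 and 59.1, 51.7, 95.3 and 53.0 CPM at Day 3. The Day 5 males held 103, 20.2, 15.6 and 3.79 CPM. Mouse 1, the library that went against its label, was just above the Day 0 range, and the others were below it. With it the log2 fold change was -0.81 (SE 0.75, adjusted p = 0.465), and without it -2.23 (adjusted p = 0.0131). In females it had 72.5, 59.8, 36.9 and 206 CPM at Day 0, 134, 142, 194 and 121 CPM at Day 2, 117, 43.7, 59.8 and 132 CPM at Day 3, and 94.3, 56.4, 122 and 183 CPM at Day 5, with no comparison passing. Day 0 mouse 4 was above all treated females. The start of Cyp24a1 overlaps Pfdn4 on the opposite strand, which had at most 518 counts in a library.

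RNA of the inactivating enzyme was set against RNA of the activating enzyme, as the ratio of Cyp24a1 to Cyp27b1 within each mouse. The log2 ratio averaged 4.72 ± 1.61 in Day 0 males and 4.77 ± 1.33 in Day 0 females (SD, n = 4 each). By Day 5 it was 1.46 ± 0.279 in males and 1.95 ± 0.969 in females. Averaged over the sexes, the difference from Day 0 was -1.73 at Day 2 (adjusted p = 0.0527), -2.16 at Day 3 (0.0084) and -3.04 at Day 5 (0.00184), by the same exact permutation test. The Day 5 value is a ratio of 0.122 of that at Day 0. Day 3 and Day 5 held with each of the 16 libraries left out in turn (adjusted p up to 0.0178 and 0.00441), and without male Day 5 mouse 1 the Day 5 difference was -3.03. The Day 2 difference passed with a smaller prior of 0.1 CPM (-2.23, adjusted p = 0.0367) and from the deposited FPKM (-1.97, adjusted p = 0.0424). Apart from mouse 4, Cyp27b1 was at 0.328 to 1.60 CPM in Day 0 males and 0 to 1.79 CPM in Day 0 females. In Day 5 males 5 of 12 proximal tubule genes fell (10.2% of all genes did), or 12 of 12 without mouse 1. In Day 5 females edgeR called 0 of 12 (0.258%), with a median log2 fold change of -0.60. Mitochondrial genes took 42.5% to 79.8% of counts in these males and 9.30% to 77.9% in these females. The part of these in the ratio was not tested.

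Casr had 9.41, 7.07, 4.41 and 10.2 CPM in female mice 1 to 4 at Day 0 and 28.6, 24.2, 19.9 and 27.1 CPM at Day 2, without overlap. The rise was 1.68 (SE 0.28, adjusted p = 0.0235, 3.20-fold). It was lost without Day 0 mouse 1 or 2 or Day 2 mouse 1, 2 or 3 (adjusted p 0.0625 to 0.0947). At Day 3 the females held 16.8, 35.9, 21.6 and 12.0 CPM, again above every Day 0 female, with a difference of 1.45 (adjusted p = 0.0511). In males the differences were 1.05 at Day 2 (adjusted p = 0.13) and 1.06 at Day 3 (adjusted p = 0.0902), from 10.3, 9.90, 2.37 and 5.75 CPM at Day 0 to 10.4, 15.4, 13.2 and 19.7 CPM at Day 3. Without Day 0 mouse 3, the lowest, the Day 3 value was 0.76 (adjusted p = 0.0453). Of the 8 thick limb genes, edgeR called 0 in females at Day 2 (1.93% of all genes), with 3 under 0.05 before adjustment and 1 called by DESeq2. The summed level of that list was 1178 to 3394 CPM in Day 0 females and 2627 to 3439 CPM in Day 2 females.

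The second question was whether males and females differed. In edgeR 0 of 10 members passed at Day 0 (0.449% of all genes did), 0 reached 0.05 before adjustment (8.04%), and DESeq2 called 1, Vdr. The Day 2 count was also 0 (1.47%), although 6 members reached 0.05 before adjustment (15%) and DESeq2 called 3. At Day 3, 2 of 10 passed (21.3%): Calb1 was lower in males by a log2 fold change of -1.41 (SE 0.31, adjusted p = 0.0161) and S100g by -1.30 (SE 0.22, adjusted p = 0.00474). In both genes every Day 3 male was below every Day 3 female. In the same comparison 6 of 9 connecting tubule and collecting duct genes were lower in males (median -0.50), as were 3 of 11 distal convoluted tubule genes (median -0.48) 3 of 8 thick limb genes (-0.56), 3 of 8 intercalated genes (-0.38), 2 of 6 tubule injury genes (-1.11) and 4 of 6 adipocyte genes (-1.02), where 10.7% of all genes were lower. Of the 12 proximal tubule genes 6 were higher in males (median 0.60), where 10.6% of all genes were. The adrenal list had a median of -5.80, with 0 of 5 called in edgeR, 5 of 5 under 0.05 before adjustment and 5 called by DESeq2. Their part in the Calb1 and S100g differences was not tested. The Calb1 call was lost without male mouse 2 (adjusted p = 0.051). The Day 5 count was 0 (0.276%), with 3 members under 0.05 before adjustment (20.3%) and 0 called by DESeq2. Without the doubtful male mouse 1 it was 3: among them Vdr was lower in Day 5 males by -1.26 (adjusted p = 0.00368) and Cyp24a1 by -2.99 (adjusted p = 0.00829). With all 4 males, the Day 5 medians were -1.55 for proximal tubule, 1.87 for leukocyte and 1.59 for adipocyte genes. The adrenal median was -3.53, with 4 of 5 genes lower (0.276% of all genes were called). Mitochondrial genes took 42.5% to 79.8% of counts in these males and 9.30% to 77.9% in these females. The part of these in the Day 5 differences was not tested.

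Whether the response to cisplatin differed between the sexes was tested by an interaction term. In edgeR 0 of the 10 members passed at Day 2 (0% of all genes), at Day 3 (0.0114%) and at Day 5 (0.243%), and before adjustment 1, 2 and 3 members were under 0.05 (4.23%, 7.11% and 15.2%). Vdr was among them at each day, with interactions of -0.72, -0.59 and -1.32 (unadjusted p 0.00417, 0.00271 and 0.00239, adjusted p 0.947, 0.478 and 0.114). DESeq2 called Vdr at Day 3 and Day 5. Without male Day 5 mouse 1 the Day 5 interaction of Vdr was -1.71 and passed (adjusted p = 0.00266). The Calb1 interactions were -1.10 at Day 3 and 0.99 at Day 5 (adjusted p 0.549 and 0.249), so the change of Calb1 from Day 0 was not shown to differ between the sexes. Without male Day 5 mouse 1 the Day 5 term was 1.01 (adjusted p = 0.166). From Day 3 to Day 5, 3 of 10 members were called in males (37.9% of all genes) and 0 of 10 in females (0%), where 4 members were under 0.05 before adjustment (11.7%) and DESeq2 called 0. Without male Day 5 mouse 1 the male count was 6, and the share of all genes called in that fit is not given here.

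The wider axis was read from 44 other genes of calcium, vitamin D and phosphate handling, of which 35 to 39 were tested in each comparison. In males 0 rose and 1 fell at Day 2 (1.81% and 1.35% of all genes did), 3 rose and 3 fell at Day 3 (11.4% and 13.1%), and 3 rose and 7 fell at Day 5 (8.98% and 10.2%), or 4 and 11 without male Day 5 mouse 1. In females 2 rose and 3 fell at Day 3 (1.26% and 4.28%). At Day 2 and Day 5 edgeR called 0 in females (0.774% and 0.185% of all genes rose, 1.16% and 0.0738% fell), where 7 and 4 were under 0.05 before adjustment and DESeq2 called 4 and 1. The median log2 fold change of the list was between -0.10 and 0.08 in all 6 comparisons, beside 0.02 to 0.04 over all genes.

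Of the axis genes called lower, 5 are described, mostly from Day 5 males. Slc34a1, the main sodium/phosphate cotransporter, went from 5396 ± 353 CPM in Day 0 males to 689 ± 796 CPM in Day 5 males (SD, n = 4 each; log2 fold change -2.93, adjusted p = 0.0256). Slc34a3, a further phosphate cotransporter, fell by 2.17 in Day 5 males (adjusted p = 0.0315), by 0.82 in Day 3 males (adjusted p = 0.0313) and by 1.82 in Day 3 females (adjusted p = 0.0465). Pth1r, the parathyroid hormone receptor, had 822 ± 131 CPM in Day 0 males and 179 ± 64.4 CPM in Day 5 males, a fall of 2.15 (SE 0.32, adjusted p = 0.00638), and also fell in Day 2 males (by 0.75), Day 3 males (by 0.64) and Day 3 females (by 1.20). The Pth1r fall in Day 5 males held with each library left out. Kl, the FGF23 co-receptor klotho, fell by 1.19 in Day 5 males (adjusted p = 0.0357), and Cyp2r1, a vitamin D 25-hydroxylase, by 2.00 (adjusted p = 0.0408), from 1.45 to 0.349 CPM. Without the doubtful Day 5 mouse 1 the falls were larger for Slc34a1 (log2 fold change -4.11, adjusted p = 0.000645), Slc34a3 (-3.28, 0.000401) and Pth1r (-2.39, 0.000777), and Kl fell by 1.39 (0.0138), while Cyp2r1 did not pass (-1.95, 0.0714). Slc34a1 is itself in the proximal tubule list, whose summed levels are given above beside Vdr.

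Some genes of the axis rose. Stc1, the hormone stanniocalcin, rose by 1.74 in Day 3 males (SE 0.32, adjusted p = 0.0114), by 1.57 in Day 5 males (adjusted p = 0.0149) and by 1.72 in Day 3 females (adjusted p = 0.048). Its level in males went from 3.16 ± 1.19 CPM at Day 0 to 10.6 ± 2.85 CPM at Day 3. Gc, the vitamin D binding protein, rose by 1.59 in Day 3 males (adjusted p = 0.0317). At Day 3 Gc was at 30.1 to 88.1 CPM in males and 97.1 to 570 CPM in females, a log2 fold change of -3.13 (adjusted p = 0.0128) that held with each library left out (-3.59 to -2.93). The difference was -3.26 at Day 0 (adjusted p = 0.175), -2.21 at Day 2 (0.136) and -2.36 at Day 5 (0.14), and the Day 3 interaction was 0.14 (0.993). At Day 5 the doubtful male mouse 1 had 166 CPM of Gc, beside 34.5, 44.0 and 13.9 CPM in male mice 2 to 4. The Day 5 difference of Gc is not given without it. Atp2b2, a further plasma membrane calcium pump, rose by 1.88 in Day 5 males (adjusted p = 0.0373). Without the doubtful Day 5 mouse 1 the values were 1.51 for Stc1 (adjusted p = 0.0166) and 2.06 for Atp2b2 (0.0273). In the 4 Day 5 males the intercalated, leukocyte and adipocyte medians were 1.03, 1.48 and 1.20, and the proximal tubule median was -2.03. Mitochondrial genes took 42.5% to 79.8% of their counts. The part of these in the Day 5 rises was not tested. Fgf23 and Pthlh, hormones made mainly outside the kidney, averaged under 0.5 CPM in all groups. Many of these calls did not outlast the loss of 1 library. In Day 3 females, those of Pth1r, Slc34a3 and Stc1 were each lost without any 1 of 6 libraries, Day 0 mice 1 to 3 and Day 3 mice 1, 3 and 4 (adjusted p up to 0.168). In Day 5 males, Slc34a1 and Atp2b2 were each lost without any 1 of 5 of the 8 libraries, Slc34a3 and Kl of 6, Cyp2r1 of 7 and Stc1 of 1 (mouse 2, adjusted p = 0.052). In Day 3 males Gc was lost without any 1 of 6, Pth1r of 4 and Slc34a3 of 3, and in Day 2 males Pth1r of 6. The Stc1 rise in Day 3 males held with each library left out.

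**Figure D5:**
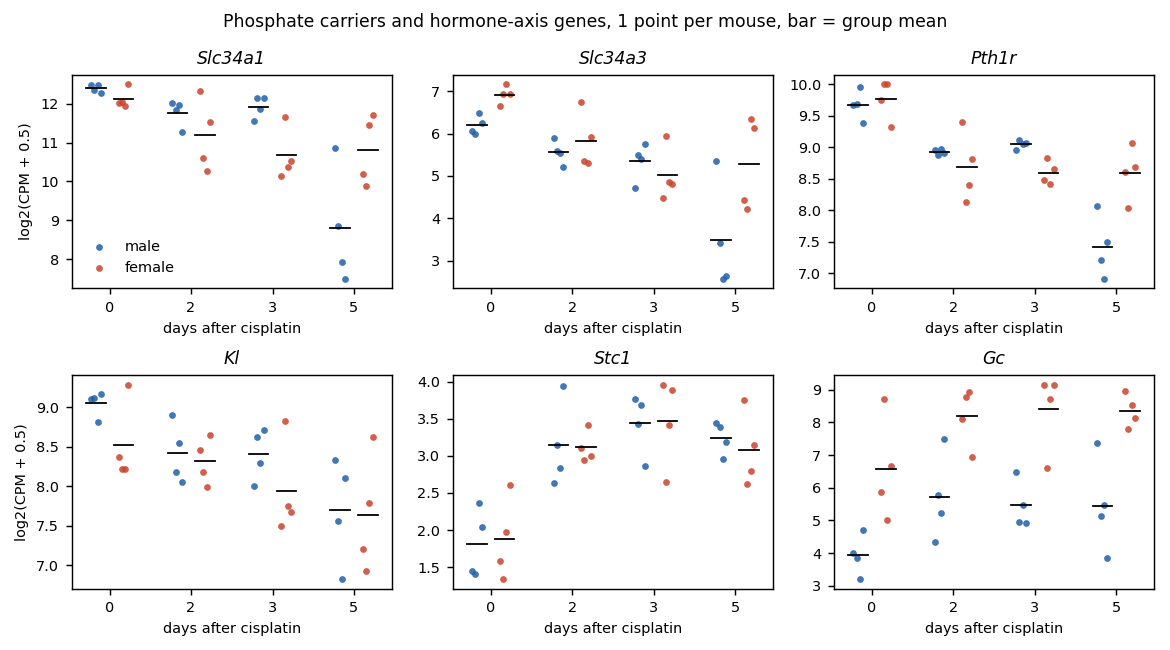
Levels of 6 genes of the wider phosphate and hormone axis by day, as log2(CPM + 0.5), with 1 point per mouse, males in blue, females in red and group means as bars. Slc34a1, Slc34a3 and Pth1r were lowest in Day 5 males, where Slc34a1 averaged 689 CPM against 5396 CPM at Day 0, and Stc1 rose from 3.16 to 10.6 CPM in males by Day 3.

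Likeness between members was read over the 32 libraries. Spearman's rho of log2 CPM was 0.828 between Trpv5 and Trpv6 and 0.751 between Calb1 and S100g, and across the channels and binding proteins -0.687 (Trpv6 and Calb1), -0.455 (Trpv5 and Calb1), -0.378 (Trpv6 and S100g) and -0.219 (Trpv5 and S100g). These are descriptions over libraries that share groups and scaling. Of 14371 genes with a mean of at least 1 CPM, those most like Trpv5 were Eda2r (0.854), Gcnt4 (0.853) and Nfe2l2 (0.844). Those most like Calb1 were Pvalb (0.903), Cox7a1 (0.898) and Mrps25 (0.89). For Cyp24a1 they were Pim3 (0.87), Ripk4 (0.801) and Nphs1 (0.791), and for Cyp27b1 the clock genes Cry2 (0.762) and Ciart (0.743), with Inpp5b (0.743).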

How the data were processed

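The deposited tables held, per the file headers, raw read counts per gene and FPKM for 32 kidney libraries. The authors made the counts from paired-end reads; their methods name GRCm38, the labels GRCm39 and mm39, with HTSeq and DESeq2, and the coordinates matched GENCODE M21 of GRCm38 for 98.3% of 54409 genes. Aligner, tool versions and strandedness are not given in the sources used here. The authors' FPKM divide counts by length in kb and an effective library size.

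Tests on the counts used R 4.3.3 with edgeR 4.0.16 (TMM, filterByExpr, robust quasi-likelihood test, Benjamini-Hochberg over all genes tested), each comparison on its own groups. A call is an adjusted p under 0.05. CPM used TMM factors over 32 libraries. In data simulated on male Day 3 against Day 0 (200 changed genes among 15587), edgeR called 92% of genes changed by 2 and 51% of those changed by 1 on the log2 scale. The changed genes were drawn only from genes above a minimum expected count, so these rates do not cover genes with low counts. Other comparisons were not simulated. Mouse numbers were not taken to pair samples.

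Members and lists were chosen with earlier results of these data known. Named genes were the 10 members, axis genes called with an absolute log2 fold change over 1.5, at most 8 in each sex, and the 3 genes most like each of 4 members; Kl, Fgf23, Pthlh, Aqp2, Havcr1, Slc12a3 and Pvalb were named after their values were seen. Alternatives were DESeq2 1.42.0, its size factors, no filter, at least 10 counts in every library, a joint fit of the 8 groups, a block by mouse number, no mitochondrial genes, a fold limit, each library left out and other ratio settings. Figures used matplotlib 3.10.9.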

Additional observations from a re-analysis of the deposited data

Results flagged for a closer look

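Of 104 sets of 4 mice (10 members and 3 ratios in 8 groups), 13 held a mouse whose gap to its nearest neighbour passed Dixon's 95% critical value. That value assumes normal data, whereas members were taken as unlogged CPM and the sets share libraries. No chance rate is therefore given for the 13. Cyp27b1 gave 5 of the 13. Male Day 0 mouse 4 had 9.09 CPM beside 0.328 to 1.60 in the others, female Day 0 mouse 4 had 24.9 beside 0 to 1.79, male Day 2 mouse 4 had 60.3 beside 7.32 to 14.4, female Day 2 mouse 1 had 105 beside 3.28 to 7.97, and male Day 3 mouse 1 had 64.2 beside 7.08 to 13.7. Cyp24a1 gave 3: male Day 0 mouse 2 at 98.3 CPM, male Day 3 mouse 3 at 95.3 CPM and male Day 5 mouse 1, the library that went against its label, at 103 CPM beside 3.79 to 20.2 in the others.

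Trpv6 was low in female Day 2 mouse 4 (2.20 CPM beside 4.90 to 5.42) and in male Day 5 mouse 2 (0.743 CPM beside 3.37 to 3.71). Calb1 was high in female Day 3 mouse 2, at 262 CPM beside 115 to 136. S100g was high in male Day 0 mouse 3, at 1623 CPM beside 414 to 471. The log2 ratio of Calb1 to the distal convoluted tubule list was low in female Day 2 mouse 1, at 0.75 beside 1.65 to 1.81.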

How the results depend on the processing

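DESeq2's Wald test called more members: in males 4 at Day 2, 8 at Day 3 and 2 at Day 5, in females 5 at Day 2, 5 at Day 3 and 2 at Day 5, between the sexes 1 at Day 0 and 3 at Day 2, and 1 interaction at Day 3 and 1 at Day 5. With 1 fit over all 8 groups, 3 members were called in males at Day 2 and 2 at Day 5, in females 5 at Day 2, 5 at Day 3 and 2 at Day 5, between the sexes 1 at Day 3 and 1 at Day 5, and 2 interactions at Day 5. The mouse numbers were not taken to pair the samples, since in no comparison did all 4 same-numbered pairs correlate over 0.1; between the sexes at Day 0, 3 of 4 did (up to 0.578), and 3 of 4 correlated best with their own number. With the mouse number as a replicate block, the calls were 0 in males at Day 2, 2 in males at Day 3, 1 in females at Day 2, 0 in females at Day 3 and 1 between the sexes at Day 3. Adding a limit of 1.5 on the absolute log2 fold change left 0 calls in males at Day 2, 3 at Day 3 and 0 at Day 5, 0 in females at Day 3 and 0 between the sexes at Day 3. Without the filter on low counts, 4 members were called in females at Day 3, and 1 between the sexes at Day 2 and 1 at Day 3; with at least 10 counts in every library, 5 were called in females at Day 3. DESeq2's size factors in edgeR and leaving out mitochondrial genes left all 15 counts within 1.5 times. The cause of these shifts was not tested.

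Leaving out 1 library gave 0 to 3, 2 to 7 and 0 to 2 calls in males at Day 2, Day 3 and Day 5, and 0 to 7, 0 to 7 and 0 to 2 in females. It gave 2 to 6 calls for males at Day 5 against Day 3, 0 to 1, 1 to 2 and 0 to 3 between the sexes at Day 2, Day 3 and Day 5, and 0 to 1 for the Day 5 interaction. The high counts in females, 7 at Day 2 and 7 at Day 3, came without Day 0 mouse 4. The shares of all genes called in the fits with a library left out are not given here. Against Slc12a3 alone the Calb1 ratio differences were -0.49 at Day 2 and -0.15 at Day 5 and no longer passed. The Cyp24a1 to Cyp27b1 difference at Day 2 passed from deposited FPKM (-1.97) and with a prior of 0.1 CPM (-2.23), and ran from -2.11 to -1.17 with 1 library left out; that of the Calb1 ratio at Day 5 ran from -0.33 to -0.22. The female Day 2 value of Cyp27b1 turned to -0.45 without Day 2 mouse 1 and ran up to 4.67 without Day 0 mouse 4. Trpv6, Cyp27b1, Slc8a1, Casr and Cyp24a1 are limited by depth, with counts as low as 5, 0, 18, 18 and 27 in a library. List counts without male Day 5 mouse 1, and Havcr1 without male Day 2 mouse 4, were added after the data were seen.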

Other observations

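Beside the calcium route, genes of the acid-secreting intercalated cells rose in Day 5 males: 6 of 8 rose (8.98% of all genes did) and 0 fell, with a median log2 fold change of 1.03 beside 0.04 over all genes. Without the doubtful male Day 5 mouse 1, 4 of 8 rose, with a median of 1.01. In the same libraries 5 of 12 proximal tubule genes fell (median -2.03, or 12 of 12 and -3.37 without mouse 1). The medians of the leukocyte, adipocyte and smooth muscle lists were 1.48, 1.20 and 1.05, or 1.81, 1.46 and 1.33 without mouse 1. Mitochondrial genes took 42.5% to 79.8% of counts, and the part of all these was not tested. The intercalated genes' summed level was 255 to 311 CPM in Day 0 males and 509 to 700 CPM in Day 5 males, and 326 to 425 CPM in Day 5 females, where edgeR called 0 of 8 (0.258% of all genes), 1 was under 0.05 before adjustment and DESeq2 called 1. In the same males Aqp2, the water channel of the collecting duct, rose by 1.32 (SE 0.39, adjusted p = 0.042), and by 1.53 without mouse 1 (adjusted p = 0.0117). Havcr1, the tubular injury marker KIM-1, rose by 5.86 in Day 3 females (SE 1.20, adjusted p = 0.0465). In Day 2 males Havcr1 was at 2.52, 1.29, 4.02 and 63.6 CPM, with a log2 fold change of 3.98 (adjusted p = 0.0895), and of 1.21 without mouse 4 (adjusted p = 0.274). In Day 3 males it was 1.16 (adjusted p = 0.14).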
